A study of Mus musculus with 38 samples.

Results

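Hair germ and bulge are neighbouring compartments of the resting mouse hair follicle, and the comparison below sets 2 wild type libraries of one against 2 wild type libraries of the other, all from dorsal skin at postnatal day 56 (P56), when wild type follicles are in telogen, the resting phase. The series holds 38 bulk RNA sequencing libraries of sorted skin cells, and 4 of them form this comparison. They are labelled Hair germ WT P56, replicates 1 and 2, and Bulge WT P56, replicates 1 and 2. Levels are given in FPKM, a fragment count scaled to transcript length and to the mapped fragments of the library, as the authors deposited them in 1 table for each cell type. Genes were matched between the tables by Ensembl identifier. The hair germ table holds 19178 genes and that of the bulge holds 20224, while 18028 are in both and 14963 of these are protein-coding. A protein-coding gene was compared where it reached 1 FPKM in at least 2 of the 4 libraries, which left 11865 genes.

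The bulge cells were sorted as GFP+ CD34+ P-cadherin low cells from K14-H2B-GFP mice, which carry a histone-GFP reporter in keratin 14-expressing epithelium. For culture experiments the study sorted GFP+ hair germ cells from mice with the same reporter, and in stained telogen follicles it describes hair germ cells as CD34-negative with high P-cadherin. The gate and the reporter are not stated there for the sequenced hair germ cells. Other libraries from the same 2 tables are shown beside these 4. They are hair germ and bulge of mutant mice at P56, which carry Nras Q61K under the Tyr regulatory region (active in melanocytes), and wild type bulge at postnatal day 30 (P30), when follicles are in anagen, the growth phase. The mutant bulge cells came from mice that carried the same GFP reporter. All hair germ and bulge libraries at P56 had Xist RNA at 22.9 to 38.4 FPKM and no Ddx3y above the lowest value listed, the pattern of female tissue. The P30 wild type bulge libraries had Ddx3y at 17.1 to 18.5 FPKM and Xist at 0.1 to 0.12 FPKM, the male pattern.

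The bulge houses the slow-cycling hair follicle stem cells, which keep their quiescent state partly through BMP signalling, NFATC1 and FGF18, and are anchored in a basement membrane that they help to build. Below it lies the hair germ, a small cluster of primed progenitors with high P-cadherin that touches the dermal papilla and is the first to divide when WNT signals rise and BMP signals fall at the onset of anagen. Above the bulge lie the isthmus, the lipid-producing sebaceous gland and the infundibulum, which joins the epidermis.

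No p-value was computed between the 2 tables, because they were made separately and 2 libraries against 2 cannot go below p = 0.333 in an exact two-sided permutation test. A gene was instead called where every library of the higher group was at least 4-fold above every library of the lower group, after values under 0.1 FPKM were set to 0.1 and libraries were rescaled by median ratios. By this rule 205 genes, or 1.73% of those compared, were higher in the libraries labelled hair germ and 310, or 2.61%, were higher in bulge. These shares are the background for the counts of every list below, and 1 call in a list is a description only. Without any margin, 38.0% of genes had both hair germ libraries above both bulge libraries and 38.1% had them below, so the order of the libraries in genes under the 4-fold margin is given below as a description only. The margin between the nearest libraries had a median of 6.41-fold among genes higher in germ and 7.21-fold among genes higher in bulge, with every library of the lower group at the floor in 12 and 33 of them. A called gene under 1 FPKM in both libraries of the lower group passed the filter only through the higher group, which fixed its side. At the threshold for germ, Adig, Adm and Pkp2 lay just inside at 4.01- to 4.02-fold and Alad, Arc and Prss22 just outside at 3.986- to 3.995-fold. For bulge, Serpinb1a, Gm6169 and Sorbs2 lay just inside at 4.02-fold and Gm9726, Fam171a2 and Trps1 just outside at 3.99-fold.

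Of the calls, 39.8% were higher in germ under median-ratio scaling and 33.6% on the values as deposited (178 and 351 genes). Where each library was scaled to the same sum over the shared genes, 25.5% were (151 and 441 genes). That scaling moved the median difference of all genes from 0.01 to -0.32 on the log2 scale. The libraries had 11979 to 12731 genes at 1 FPKM or more and FPKM sums of 701329 to 835066. The tables give no read totals, so depth is unknown. Among genes at 10 FPKM or more in both libraries, the hair germ replicates differed by more than 2-fold in 3 of 6308 genes (0.0476%) and the bulge replicates in 183 of 6535 (2.8%). The study counts its bulge libraries as independent experiments and speaks of biological replicates for its bulk libraries in general. No label ties a library to an animal, so the spread between replicates, and the p-values given further on, may in part be technical. In the order bulge replicate 1 and 2, Cd74, the invariant chain of antigen-presenting cells, was at 324 and 44.6 FPKM. Krt1, a keratin of differentiating epidermis, was at 230.2 and 23.8 FPKM and Tgm5, a transglutaminase, at 108 and 552 FPKM.

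**Figure D1:**
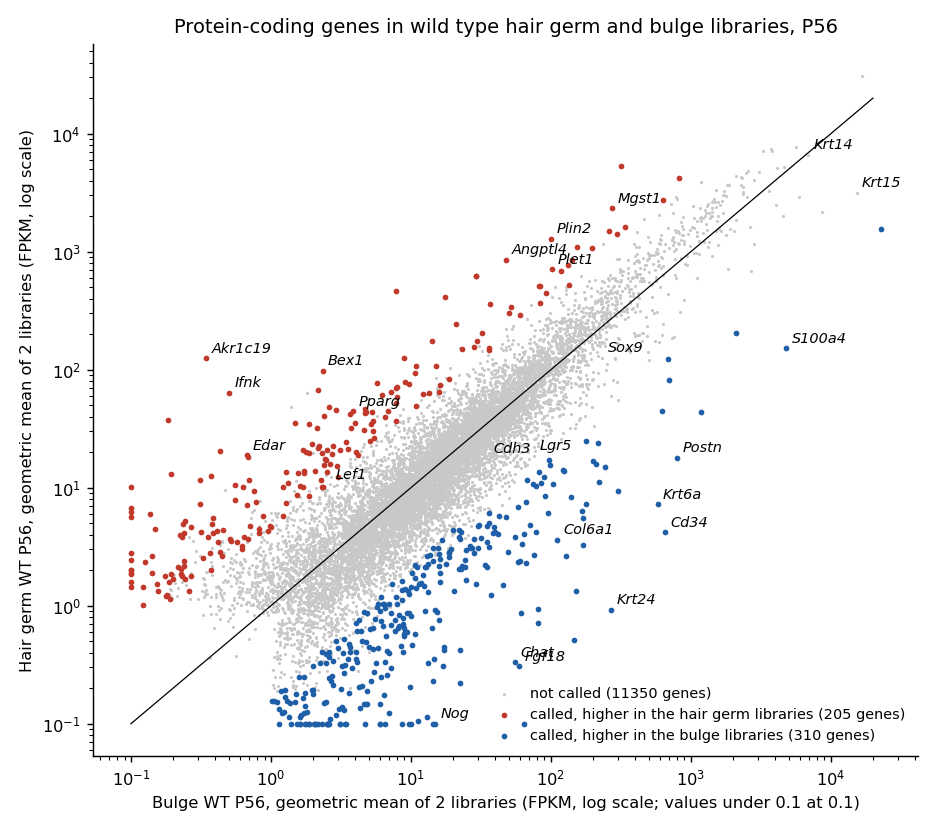
Each point is 1 of 11865 protein-coding genes, with the geometric mean of the 2 wild type bulge libraries (horizontal, FPKM, log scale) against that of the 2 hair germ libraries (vertical, FPKM, log scale); the line marks equal levels. Red and blue points are the 205 and 310 genes called in each direction, with Cd34, Krt24, Fgf18 and Chat far below the line and Akr1c19, Ifnk and Bex1 far above it, and Krt14 close to it.

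Genes of skin epithelium and of hair follicle stem cells were expressed in the libraries of both groups. Krt14, the keratin of basal epithelial cells, was at 6514 and 6700.3 FPKM in hair germ and 10135 and 4708 FPKM in bulge, so the groups overlapped. Sox9, a transcription factor of the outer root sheath and its stem cells, was at 121 and 131 FPKM in hair germ and 184 and 296 FPKM in bulge, a difference of -0.78 ± 0.37 (SE, log2, hair germ minus bulge) that did not reach the 4-fold margin. Lhx2, which maintains follicle stem cells, was at 31.7 and 29.9 FPKM in hair germ and 77.4 and 109 FPKM in bulge, lower in both hair germ libraries but not called. Among 37 transcription factors of hair follicle stem cells that were compared, 0 were called higher in germ and 1, Dlx3, higher in bulge, with a median difference of -0.34 against 0.01 over all genes. Over all genes 1.73% and 2.61% were called, so these counts are near that background.

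Genes known from the hair germ were not, as a group, higher in the libraries labelled hair germ. Of 24 such genes 21 were compared, and 10 of these were above and 11 below 0. None was called higher in germ and 1, Hhip, was called higher in bulge. The median difference was -0.52. Cdh3, which encodes P-cadherin, was at 17.9 and 17.4 FPKM in hair germ and 37.4 and 33.3 FPKM in bulge, although the bulge sort took cells low in P-cadherin protein. Lgr5, an R-spondin receptor that marks both lower bulge and hair germ, was at 18.5 and 18.8 FPKM in hair germ and 74.4 and 78.1 FPKM in bulge. Both genes were thus lower in each hair germ library than in each bulge library. Lef1, the WNT effector of the activated germ, went the other way at 10.8 and 10.5 FPKM in hair germ and 4.08 and 1.7 FPKM in bulge, and Wnt10b, an early WNT ligand of anagen, was at 5.2 and 3.93 FPKM against 1.18 and 1.38 FPKM. Neither reached the 4-fold margin in every pair of libraries. Runx1, a factor of anagen entry, was at 32.4 and 31.2 FPKM and 25.8 and 27.8 FPKM, within 2-fold. Shh, the ligand that the germ secretes once activated, and the WNT inhibitor Dkk4 are not in both tables. Cd34 was at 4.17 and 4.25 FPKM in hair germ and 465 and 906 FPKM in bulge. The bulge cells were sorted for CD34, so the side of this gene was set by the sort and does not bear on the label. The label hair germ is kept here as the name of the libraries.

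**Figure D2:**
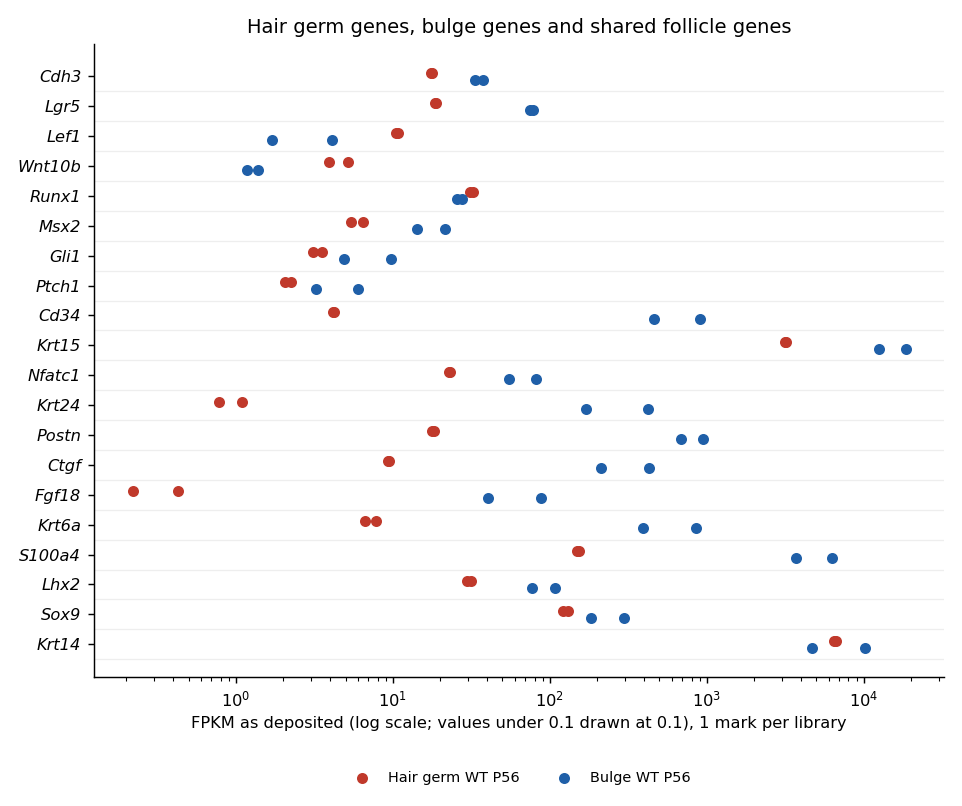
FPKM as deposited (horizontal, log scale) of 20 follicle genes in the 2 wild type hair germ libraries (red) and the 2 wild type bulge libraries (blue) at P56, 1 mark per library. Cdh3 and Lgr5, genes of the hair germ, lie to the left in the hair germ libraries, while Lef1 and Wnt10b lie to the right and Krt14 overlaps.

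The bulge libraries stood apart from the hair germ libraries first by the genes of the outer bulge, the layer of label-retaining stem cells. Of 29 outer bulge genes compared, 16 were called higher in bulge and 0 higher in germ, and 24 were below 0. The median difference was -2.99. Leaving out any 1 of the 4 libraries gave 16 to 20 calls. Cd34 (chr1:194938819-194961279, GRCm38), the surface protein used for the bulge sort and hence no finding, was at 4.17 and 4.25 FPKM in hair germ and 465 and 906 FPKM in bulge, 143-fold apart. Krt24 (chr11:99279959-99285262), a keratin, was at 0.78 and 1.09 FPKM in hair germ and 170.3 and 425 FPKM in bulge, 271-fold higher in bulge and the widest margin in the list. Postn, the matricellular protein periostin, was at 17.8 and 18.2 FPKM against 681 and 942 FPKM (41.3-fold). Ctgf, a target of YAP and TGF-beta signals, was at 9.31 and 9.42 FPKM against 212 and 428 FPKM (29.8-fold), and Myoc, the secreted protein myocilin, at 11.1 and 11.2 FPKM against 194 and 254 FPKM (18.4-fold). In each of these genes the lower bulge library still lay far above the higher hair germ library.

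Other bulge genes differed less. Krt15, the keratin most used to mark the bulge, was at 3141 and 3196 FPKM in hair germ and 12592 and 18542 FPKM in bulge, a log2 difference of -2.16 ± 0.31 (SE, n = 2 libraries a group) that missed the call. Nfatc1, which holds bulge cells in quiescence, was at 22.8 and 23 FPKM and 55 and 81.9 FPKM, also not called. Cd200, an immune-inhibitory surface protein of the bulge, was at 211 and 230.4 FPKM in hair germ and 104 and 149 FPKM in bulge, and Wif1, a WNT inhibitor, was at 17.1 and 16.9 FPKM and 17.1 and 12.3 FPKM. These last 2 were not lower in hair germ: Cd200 lay above both bulge libraries and Wif1 overlapped them on the values as deposited. After rescaling, the lower hair germ library for Wif1 was 1.08-fold the higher bulge library. Cck, the peptide cholecystokinin, was likewise high in both groups, at 144 and 139 FPKM and 242 and 186 FPKM.

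The inner bulge is the layer next to the club hair, made of differentiated cells that send quiescence signals, FGF18 among them, to the stem cells. Of 13 inner bulge genes compared, 6 were called higher in bulge and none higher in germ, with a median difference of -2.004. Fgf18 itself was at 0.22 and 0.43 FPKM in hair germ and 40.5 and 87.6 FPKM in bulge. Krt6a, a keratin of this layer, was at 6.65 and 7.82 FPKM against 393 and 851 FPKM (74.5-fold), although reads can be shared with the near-identical Krt6b. Krt75, a keratin of the companion layer, was at 0.58 and 0.31 FPKM against 10.3 and 29.2 FPKM. S100a4, a calcium-binding protein, was at 150.0 and 154 FPKM against 3689 and 6246 FPKM (29.4-fold), one of the most abundant RNAs among the called genes. All 4 genes were higher in bulge replicate 2 than in replicate 1, and either bulge library was far above both hair germ libraries. Cdkn1a, the cell cycle inhibitor p21, which was in the same list, lay on the other side at 738 and 729 FPKM in hair germ and 434 and 289 FPKM in bulge.

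Secreted BMP inhibitors lay mostly on the bulge side. Of 11 BMP antagonists compared, 3 were called higher in bulge and 0 higher in germ. Nog, which encodes noggin, was at 0 and 0.1 FPKM in hair germ and 11.7 and 18.8 FPKM in bulge; both hair germ libraries were at or under the floor of 0.1. Grem1, gremlin 1, was at 2.4 and 2.38 FPKM against 44.2 and 82 FPKM (23.4-fold), and Fstl1, follistatin-like 1, at 2.67 and 4.47 FPKM against 33.6 and 36 FPKM (9.36-fold). Bambi, a membrane pseudoreceptor of the same list, was not called, and neither were Smad6 and Smad7, the intracellular inhibitors. The BMP ligands showed 1 call of 6, Gdf5, at 5.77 and 4.79 FPKM in hair germ and 0.18 and 0.33 FPKM in bulge; none of 8 BMP receptors was called in either direction. Smad9, a BMP-driven transcriptional regulator, was at 0.39 and 0.24 FPKM against 3.09 and 3.38 FPKM.

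In the WNT pathway the calls were split. Of 11 WNT antagonists compared, Sfrp1 and Dkk3 were called higher in bulge and Notum, which removes the lipid from WNT proteins, higher in germ. Sfrp1, a soluble frizzled decoy, was at 6.35 and 6.32 FPKM in hair germ and 120.2 and 233 FPKM in bulge (24.5-fold), whereas Notum was at 9.54 and 7.48 FPKM against 1.83 and 1.91 FPKM (4.86-fold higher in germ). Among 17 receptors and co-receptors, Fzd2 and Fzd9 were called higher in bulge, with Fzd2 at 4.82 and 4.48 FPKM against 27.2 and 55.7 FPKM. Among 13 ligands only Wnt7a was called, higher in germ at 1.97 and 2.03 FPKM against 0.3 and 0.47 FPKM. Of 14 genes listed as WNT targets, Notum and Edar were called, both higher in germ, with a median of 0.51 and 9 above 0. Edar (chr10:58600789-58675654), the ectodysplasin receptor of the hair placode, was at 18.9 and 18.7 FPKM in hair germ and 0.65 and 0.71 FPKM in bulge (29.7-fold). Its ligand Eda was at 0.96 and 1.13 FPKM and 5.02 and 9.71 FPKM (6.23-fold higher in bulge). Receptor and ligand thus lay on opposite sides. The Hedgehog list had 1 call of 13, Hhip, an inhibitor that is also a target, at 0.11 and 0.18 FPKM in hair germ and 1.95 and 1.59 FPKM in bulge. The targets Gli1 (3.1 and 3.53 against 9.79 and 4.91 FPKM) and Ptch1 (2.25 and 2.06 against 6 and 3.23 FPKM) were not called.

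Of 24 basement membrane genes compared, 21 were below 0, 4 were called higher in bulge and 1 higher in germ, with a median of -1.36. Tnc, tenascin C, was at 2.06 and 2.18 FPKM in hair germ and 24.2 and 49.8 FPKM in bulge, and Smoc1, a calcium-binding matrix protein, at 0.11 and 0.14 FPKM against 6.61 and 7.35 FPKM. Egfl6, a matrix protein of the upper bulge, was at 4.3 and 3.98 FPKM against 25.5 and 58.9 FPKM. The exception was Lama4, a laminin chain, at 19.2 and 21 FPKM in hair germ and 1.17 and 2.72 FPKM in bulge (12.1-fold higher in germ). Col17a1, the hemidesmosomal collagen of stem cells, was at 189.7 and 183 FPKM against 675 and 786 FPKM and was not called. Outside the list, the collagen chains Col6a2 (1.53 and 1.45 against 41.3 and 50 FPKM) and Col8a2 (2.66 and 2.65 against 97.5 and 166 FPKM) were among the 15 widest margins. Of the fibroblast markers, which share matrix genes, 7 of 12 were compared and 1, Loxl1, was called higher in bulge. Pdgfra, Lum and Dpt were under the filter, and the list summed to 50.1 to 52.6 FPKM in hair germ and 70.8 to 75.7 FPKM in bulge.

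Chat, the enzyme that makes acetylcholine, was at 0.36 and 0.31 FPKM in hair germ and 40.5 and 76.5 FPKM in bulge. Pdlim3, an actin-associated LIM protein, was at 0.87 and 0.87 FPKM against 57.3 and 65.4 FPKM. Wfdc3, a protein with protease-inhibitor domains, was at 2.74 and 3.83 FPKM against 135 and 211 FPKM. All 3 had margins among the 15 widest toward bulge. Cxcl14, a chemokine of skin epithelium, was abundant in both and was called higher in bulge, at 225 and 188 FPKM against 1685 and 2627 FPKM. Dsg3, the basal desmoglein, was at 5.76 and 5.57 FPKM against 48 and 48.3 FPKM. Replication-dependent histone genes took 4 of the 15 places. Hist1h2al was listed at 0 in both hair germ libraries and at 57.1 and 72.7 FPKM in bulge, and Hist1h2bb was at 0.82 and 1.09 against 60.6 and 109 FPKM. Hist1h2bf (0.38 and 1.36 against 62.8 and 105 FPKM) and Hist1h2bm (3.65 and 0.49 against 105 and 214 FPKM) completed the set. Histone copies share sequence and their transcripts mostly lack poly(A) tails, so these values are uncertain. The same holds for Il11ra2 (2.63 and 0 against 135 and 160.2 FPKM) and Gm13306 (1505 and 1622 against 22708 and 22894 FPKM), which belong to a repeated locus with near-identical copies.

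Sebaceous gland markers lay on the side of the libraries labelled hair germ. Of 14 sebaceous gland markers, all compared, 13 were above 0, 5 were called higher in germ and 0 higher in bulge, and the median difference was 2.23. Summed over the list, the hair germ libraries reached 3479 and 3639 FPKM and the bulge libraries 478 and 814 FPKM. Mgst1 alone gave 2263 and 2423 FPKM of the hair germ sums. High sums were not limited to hair germ. Wild type dermal papilla libraries, from a separate table, reached 2912 and 3313 FPKM at P30 and 362 and 647 FPKM at P56. Bulge replicate 2 held more of these genes: without it 11 of the 14 were called, and without bulge replicate 1 the count was 5. In bulk libraries fewer cells of a type and less RNA per cell cannot be told apart.

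Pparg (chr6:115360951-115490399), the nuclear receptor that drives sebocyte and adipocyte differentiation, was at 44.9 and 43.9 FPKM in hair germ and 2.52 and 5.91 FPKM in bulge (12.4-fold). Mgst1 (chr6:138140316-138156755), a glutathione transferase strongly expressed in sebaceous gland, was at 2263 and 2423 FPKM against 218 and 347 FPKM (9.16-fold). Awat2, which makes wax esters, was at 24.9 and 24.4 FPKM against 2.91 and 4.02 FPKM, and Mc5r, the melanocortin receptor of sebocytes, at 20.5 and 18.7 FPKM against 1.12 and 3.11 FPKM. In these 4 genes the hair germ libraries lay close together, while the bulge libraries were further apart. Scd1, a fatty acid desaturase, at 233 and 235 FPKM against 27.3 and 105 FPKM, and Far2, which makes fatty alcohols, at 39 and 41.6 FPKM against 2.79 and 11.8 FPKM, missed the call through bulge replicate 2. Awat1, a further wax ester synthase, was the 1 marker below 0, at -1.14.

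A few other lipid genes are described without a count or a test, since they were named after their values were seen or for their wide margins, and this choice fixed their side. Plin2, which coats lipid droplets, was at 1298 and 1275 FPKM in hair germ and 81.6 and 124 FPKM in bulge (13.8-fold). Srebf1, the regulator of fatty acid synthesis, was at 358 and 369 FPKM against 41.1 and 32.8 FPKM and Lpl, lipoprotein lipase, at 60.4 and 60.5 FPKM against 4.79 and 8.15 FPKM. Angptl4 (chr17:33773750-33781830), an inhibitor of that lipase and a known PPAR target, was at 865 and 848 FPKM against 50.7 and 45.4 FPKM, a log2 difference of 4.26 ± 0.06 (SE). Pdk4 (chr6:5483351-5496309), which turns glucose oxidation down, was at 642 and 614 FPKM against 22.4 and 38.3 FPKM (23.1-fold). The 2 hair germ libraries of each of these genes lay close together.

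Akr1c18 (chr13:4132615-4150654), the enzyme that inactivates progesterone, was at 5229 and 5324 FPKM in hair germ and 426 and 235 FPKM in bulge (18-fold), among the most abundant of all called RNAs. Its neighbour Akr1c19 (chr13:4228700-4252843) had the widest margin of all genes higher in germ, at 124 and 125 FPKM against 1.18 and 0.1 FPKM. The 2 are paralogs and may share reads. Esr1, the oestrogen receptor alpha, was at 21.4 and 20.7 FPKM against 4.37 and 1.43 FPKM. Esr1 and Akr1c18 were named after their values were seen. The remaining wide margins were mixed in function. They included Ifnk, the type I interferon of keratinocytes (63.2 and 64.8 against 0.25 and 1.02 FPKM), and Slpi, a secreted protease inhibitor (70.4 and 64.9 against 1.99 and 2.4 FPKM). Igfbp2, which binds insulin-like growth factors, was at 433 and 391.7 FPKM against 14.3 and 21.7 FPKM. Tgm2, tissue transglutaminase, was at 40.8 and 40.2 FPKM against 2.85 and 2.02 FPKM, and Ahcy, which clears S-adenosylhomocysteine, at 34.8 and 35.7 FPKM against 1.85 and 1.19 FPKM. Bex1 (98.5 and 97.9 against 1.77 and 3.1 FPKM), Wscd2 (20.6 and 20.4 against 0.37 and 0.51 FPKM) and Zfp280b (34.4 and 34.9 against 2.16 and 1.62 FPKM) complete the named genes. The predicted genes Gm10020, Gm10800 and Gm21887 also ranked among the 15 but may share reads with copies elsewhere.

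Of 12 isthmus and upper follicle markers, 1 was called higher in germ, 7 were above and 5 below 0, and the median was 0.82. Plet1 (chr9:50494525-50505482), the surface antigen of isthmus cells, was at 712 and 708 FPKM in hair germ and 109.9 and 94.6 FPKM in bulge, a log2 difference of 2.91 ± 0.08 (SE). Lgr6, an R-spondin receptor of the lower isthmus, was at 64.5 and 58.8 FPKM against 18 and 13.2 FPKM, and Lrig1, a growth factor receptor inhibitor of the upper isthmus, at 72.9 and 76.7 FPKM against 33 and 27.4 FPKM. Both were above both bulge libraries but not called, and both were named after their values were seen, which fixed their side. Plet1, Lgr6 and Lrig1 thus do not stand for the whole list, of which 5 members lay below 0. Of 8 interfollicular basal markers, Avpr1a, a vasopressin receptor (107 and 108 against 11.7 and 10 FPKM), and Ly6e (785 and 769 against 192 and 92.6 FPKM) were called higher in germ. In that list 6 were above and 2 below 0, with a median of 0.56. Its sums overlapped, at 1859 and 1889 FPKM in hair germ and 1796 and 1966 FPKM in bulge. Of 9 suprabasal epidermis markers compared, Ivl, the cornified envelope protein involucrin (45.8 and 46.7 against 6.97 and 3.2 FPKM), and Lce1a1 (2.09 and 2.8 FPKM, with both bulge libraries at the floor of 0.1) were called higher in germ. Krt1 and Krt10, the main suprabasal keratins, overlapped, with Krt10 at 217 and 173 FPKM in hair germ and 394 and 62.2 FPKM in bulge.

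**Figure D3:**
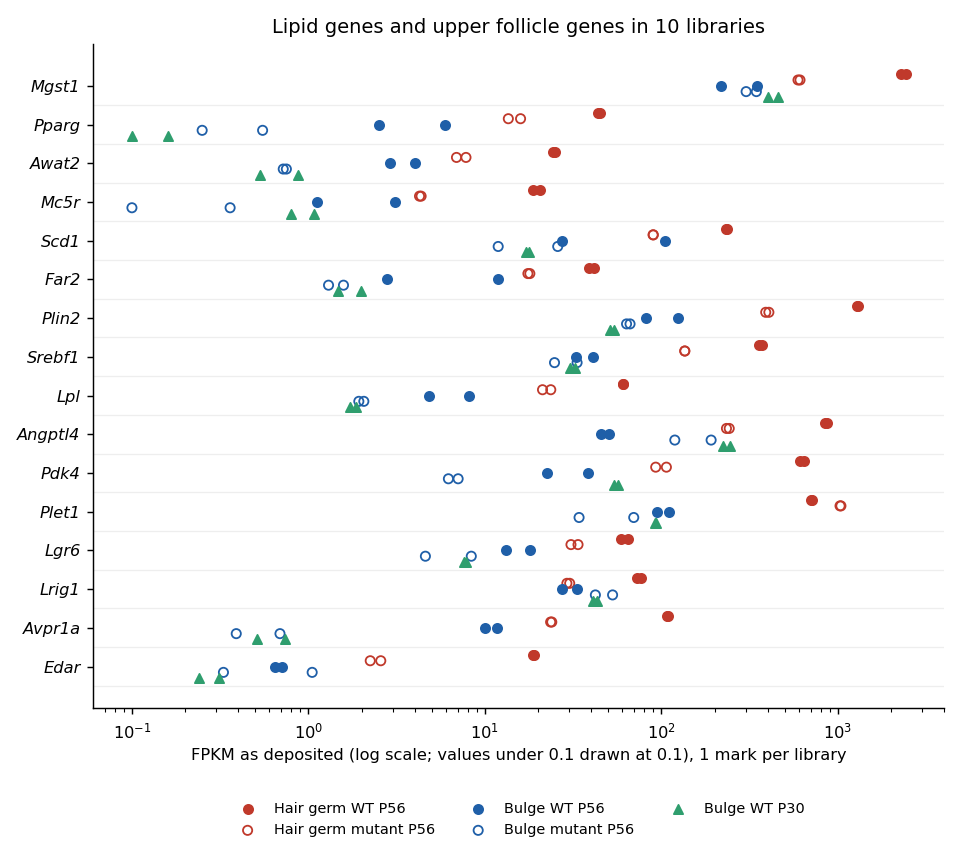
FPKM as deposited (horizontal, log scale, values under 0.1 at 0.1) of 16 lipid, sebaceous and upper follicle genes in 10 libraries, 1 mark per library: hair germ wild type and mutant P56 (red, filled and open circles), bulge wild type and mutant P56 (blue, filled and open circles) and bulge wild type P30 (green triangles). The filled red marks of the wild type hair germ libraries lie furthest right for every gene except Plet1.

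Of 20 immediate early genes, 19 were above 0, with a median of 1.02, and 2 were called higher in germ: Ier3 (1369 and 1462 against 305 and 287 FPKM) and Hspa1a, a heat shock protein (844 and 860.5 against 102 and 198 FPKM) whose near-identical copy Hspa1b was at -1.12, so that their reads may have been split. Fos, at 7623 and 7750.3 FPKM in hair germ and 7566 and 4263 FPKM in bulge, and Egr1, at 2101 and 2129 against 1032 and 537 FPKM, were not called. Fosl1 and Cxcl1 were outside the list and were named after their values were seen, which fixed their side. Fosl1, an AP-1 subunit, was at 351 and 335 FPKM against 84.2 and 31.6 FPKM and Cxcl1, a neutrophil-attracting chemokine, at 169 and 184 FPKM against 17.7 and 11.3 FPKM, both called higher in germ. Genes of this kind respond to cell dissociation, and their part in the other differences was not tested.

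All 35 mitosis genes and 28 of 30 DNA replication genes were above 0, against 5986 of 11865 for all genes, but none was called, with medians of 1.36 and 0.98. Of 16 housekeeping genes kept as a reference list, such as Eef1a1 and Rplp0, 14 were also above 0, with a median of 0.61 and no call. A shift to the hair germ side was thus not particular to the cycling lists. Mitosis genes summed to 583 to 587 FPKM in hair germ, 413 FPKM in bulge replicate 1 and 142 FPKM in bulge replicate 2. Cdk1, the kinase that drives entry into mitosis, was at 86.5 and 83.1 FPKM against 33.5 and 9.36 FPKM and Mki67, a marker of cycling cells, at 6.4 and 6.96 FPKM against 5.73 and 2.27 FPKM. Without bulge replicate 1, 17 of the 35 were called higher in germ, and without bulge replicate 2 none was, so the size of this difference turned on which bulge library was used.

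Immune and melanocyte markers that passed the filter all lay on the bulge side, while the mural, Schwann and dermal papilla lists were split. Of 19 immune markers 14 were compared, all 14 were below 0 and 4 were called higher in bulge. Those 4, Cd207, Cd3g, Fcer1g and Tyrobp, were under 1 FPKM in both hair germ libraries. They passed the filter only through the bulge libraries, which fixed their side. The filter can act likewise on other members, so the count below 0 is a description only. The list summed to 107 and 106 FPKM in hair germ, 906 FPKM in bulge replicate 1 and 148 FPKM in bulge replicate 2. Cd207, which marks Langerhans cells, was listed at 0 in both hair germ libraries and at 25.1 and 2.96 FPKM in bulge. Cd3g, of T cells, was listed at 0 in hair germ and at 8.4 and 4.28 FPKM in bulge, and Ptprc, the pan-leukocyte CD45, was under the filter. Leaving out bulge replicate 2 raised the immune calls to 10, and leaving out bulge replicate 1 gave 5. Of 11 melanocyte markers 5 were compared and Gpnmb was called higher in bulge (1.02 and 0.75 against 9.49 and 9.86 FPKM). Tyr, Sox10 and Kit were under the filter, and the list summed to 18.1 to 18.2 FPKM in hair germ and 56.6 to 71.6 FPKM in bulge. Endothelial, mural, Schwann and red blood cell lists had 1 to 6 members above the filter each and 0 to 1 calls. Of these calls, Cnn1, of the mural list, was higher in germ and Hbb-bs, of the red blood cell list, higher in bulge. Of 6 dermal papilla markers compared, 3 were above and 3 below 0, with 1 call in each direction. The part of immune or melanocyte RNA in the genes higher in bulge was not tested.

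**Figure D4:**
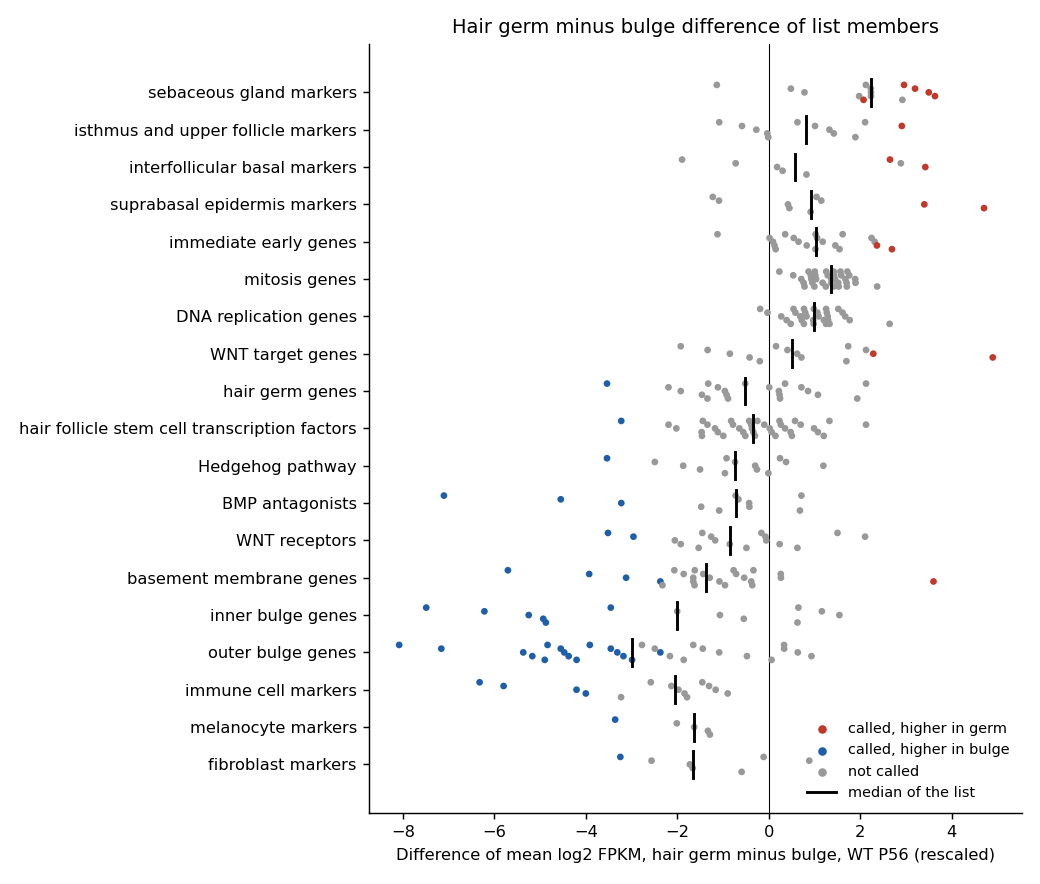
Difference of mean log2 FPKM, hair germ minus bulge, wild type P56 (horizontal), for the compared members of 19 gene lists (vertical); each dot is a gene, red or blue where called in that direction and grey where not, and the black bar is the median of the list. Sebaceous markers lie to the right (median 2.23), outer and inner bulge genes to the left (medians -2.99 and -2.004), and hair germ genes around 0 (median -0.52).

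The sequences upstream of the called genes were searched for letters of known binding motifs, a search chosen after the called genes were known. RefSeq promoters (GRCm38.p6, the 250 bases before each annotated start, both strands) were found for 147 of the 205 genes higher in germ, 216 of those higher in bulge and 9020 of all genes compared. The AP-1 letters TGANTCA occurred upstream of 16.3% of the genes higher in germ, 6.94% of those higher in bulge and 5.41% of all genes. The direct repeat bound by PPAR and RXR was found upstream of 0 of 147 and 0 of 216 genes, and a relaxed form of it, with 1 free base in each repeat, upstream of 1 and 1. The nuclear receptor letters AGGTCA, which make up this repeat, occurred in 18.4% and 16.2% against 12.8% of all. TATAAA, the TATA box, occurred in 12.2% and 13.0% against 7.65%, and the LHX letters TAATTA in 5.44% and 2.78% against 2.82%. The other 12 motifs searched were the sterol element TCACNCCAC, TCF-LEF CTTTGA, NFAT GGAAAA, RUNX TGTGGT, CRE TGACGTCA, heat shock GAANNTTC, SOX ACAATG, E-box CACGTG, SMAD GTCTAGAC, TEAD GGAATG, the NF-kB site and the interferon-stimulated response element. For RUNX the shares were 9.52% and 16.2% against 12.5%, for NFAT 20.4% and 22.2% against 21.4% and for TCF-LEF 17.7% and 13.9% against 12.4%. A match is a run of letters and shows no binding, and no test was run on these shares. Plet1 and Ivl, genes of the upper follicle and the cornified layer that were higher in germ, are shown because each holds the AP-1 letters, in capitals, at -144 to -138 and at -116 to -110 from the start site. The windows are chr9:50494275-50494524 on the plus strand and chr3:92573736-92573985 on the minus strand, written 5′ to 3′.
Plet1: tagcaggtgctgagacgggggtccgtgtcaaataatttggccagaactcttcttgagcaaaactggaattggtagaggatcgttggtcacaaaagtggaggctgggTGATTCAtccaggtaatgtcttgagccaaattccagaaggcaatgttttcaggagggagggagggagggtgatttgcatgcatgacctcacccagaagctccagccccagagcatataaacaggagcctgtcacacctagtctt
Ivl: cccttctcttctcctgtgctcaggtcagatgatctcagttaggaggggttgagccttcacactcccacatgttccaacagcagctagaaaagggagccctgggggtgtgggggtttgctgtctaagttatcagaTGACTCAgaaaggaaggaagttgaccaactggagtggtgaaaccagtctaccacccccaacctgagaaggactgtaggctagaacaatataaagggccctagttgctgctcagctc

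The libraries with the same labels were compared in mutant mice at P56, in 4 libraries that the wild type comparison did not use but that come from the same 2 tables, so whatever a table adds is shared. There 502 genes (4.23%) were called higher in germ and 514 (4.33%) higher in bulge. This balance depended on the scaling, with 342 and 717 genes on the values as deposited and 283 and 934 with equal sums. Of the 205 genes higher in germ in wild type, 75 were called in the same direction in mutants, which is 36.6% of the wild type list and 14.9% of the mutant list. Of the 310 higher in bulge, 113 were called again, 36.5% of the wild type list and 22.0% of the mutant list. By sign alone 82.0% and 84.5% kept their direction in mutants, and 10 genes were called in opposite directions.

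Krt24, Cd34, Fgf18, Krt6a and Chat were called higher in bulge in both genotypes, and Akr1c19, Akr1c18, Ifnk, Igfbp2, Pparg, Avpr1a and Plet1 higher in germ in both. In mutant libraries Cd34 was at 0.43 and 0.48 FPKM in hair germ and 59.7 and 112 FPKM in bulge, and Pparg at 15.9 and 13.6 FPKM and 0.55 and 0.25 FPKM. Each was lower in both compartments than in wild type. Sebaceous markers gave 10 calls of 14 higher in germ in mutants, with a median of 3.81. Suprabasal markers gave 6 calls of 9, isthmus markers 6 of 12 and interfollicular basal markers 4 of 8, all higher in germ. Suprabasal markers summed to 6007 and 5748 FPKM in mutant hair germ and 1571 and 1546 FPKM in wild type hair germ. Whether the hair germ libraries of the 2 genotypes held the same mix of cells was not tested. Outer bulge genes gave 13 of 29 higher in bulge and 2 higher in germ, with a median of -1.70. Postn, at 74 and 64.9 FPKM in mutant hair germ and 108 and 184 FPKM in mutant bulge, was not called there, and neither were Bex1 (5.11 and 6.13 and 1.26 and 3.18 FPKM) and Angptl4 (234 and 242 and 119 and 191 FPKM). Ahcy (19 and 22 and 36.1 and 66.9 FPKM) and Slpi (8.88 and 9.13 and 35.8 and 22 FPKM) also lost their call. The same holds for Edar, Tgm2, Zfp280b and Nog. Of the hair germ genes, 10 of 21 were called higher in bulge and 1 higher in germ in mutants, with a median of -1.79. Lgr5 was at 2.07 and 1.43 FPKM in mutant hair germ against 62.1 and 85.8 FPKM in mutant bulge, and Lef1 at 0.36 and 0.17 FPKM against 10.1 and 3.79 FPKM. The mitosis list did not keep its side, with a median of -0.27 and no call. The histone genes kept theirs, with Hist1h2al listed at 0 in both mutant hair germ libraries and at 66.7 and 37.9 FPKM in mutant bulge.

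**Figure D5:**
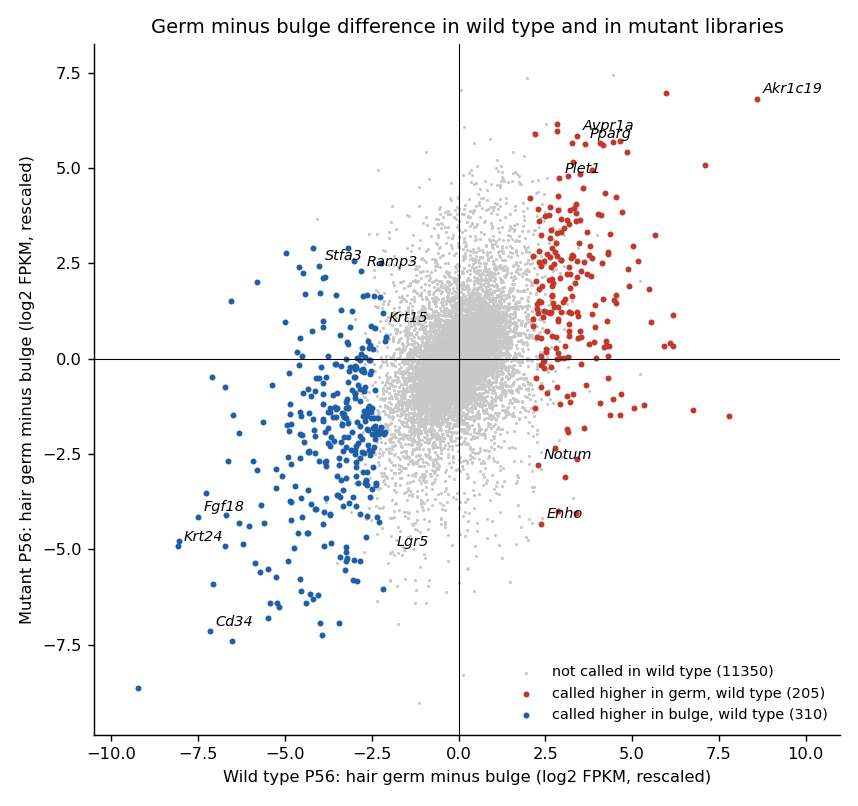
Difference of mean log2 FPKM, hair germ minus bulge, in wild type (horizontal) and in mutant libraries (vertical), both at P56, for 11865 genes; red and blue points are the genes called in wild type. Points in the lower left and upper right lie on the same side in both genotypes (82.0% of red and 84.5% of blue points), and Ramp3, Stfa3, Notum and Enho are labelled among those that do not.

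Within each table a test was possible, limma on log2(FPKM + 1) with Benjamini-Hochberg adjustment, called under 0.05 with a 2-fold change. These tests share libraries with the germ to bulge comparison, so they are given side by side and no relation between them is read. In hair germ, 621 genes (5.17%) were higher and 1136 (9.45%) lower in mutant than wild type at P56. The median change of all genes in hair germ was -0.26 (log2), and with median-ratio scaling, which moved it to -0.01, the balance turned to 923 higher and 656 lower. In bulge, 740 (5.58%) were higher and 801 (6.04%) lower, and 790 and 749 with that scaling. Of the outer bulge genes, 20 of 29 fell and 1 rose in mutant bulge, and 14 of 25 fell and 4 rose in mutant hair germ (12 and 6 with median-ratio scaling). The study names some of these genes, such as Ctgf, Grem1 and Nfatc1, as lower in mutant bulge at P56. It used the same series, so the bulge count in part restates its result. Cd34 fell by 2.97 ± 0.35 (SE, log2) in mutant bulge (adjusted p = 0.000897) and by 1.84 ± 0.11 in mutant hair germ (adjusted p = 0.000121). Postn fell by 2.50 ± 0.27 in mutant bulge (adjusted p = 0.000545) and rose by 1.89 ± 0.08 in mutant hair germ (adjusted p = 5e-05), and the mutant libraries of the 2 compartments lay within 4-fold of each other. Of the sebaceous markers, 7 of 14 fell and none rose in each table; Pparg fell by 1.53 ± 0.09 in hair germ (adjusted p = 0.000116) and by 1.82 ± 0.33 in bulge (adjusted p = 0.00632). Lgr5 fell by 2.85 ± 0.13 in mutant hair germ (adjusted p = 5.85e-05), while its change of -0.06 ± 0.19 in mutant bulge did not pass (adjusted p = 0.856). The difference between the 2 changes was not tested, since the tables were made separately.

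Wild type bulge libraries at P56 were also compared with those at P30, where 1445 genes (10.9%) were higher and 899 (6.78%) lower at P56. The median change of all genes was 0.13 (log2). With median-ratio scaling, which moved it to 0.01, the counts were 1136 and 1120, without P30 replicate 1 they were 920 and 552, and without P30 replicate 2 they were 859 and 569. Sex differs with age in these libraries, and their effects cannot be told apart. Of the 29 outer bulge genes, 22 were higher at P56 and 1 lower, and of the 14 inner bulge genes 5 were higher and 2 lower. The outer bulge list holds genes, such as Grem1 and Tgm5, that the study places in a telogen-specific cluster of single bulge cells. Its count thus in part restates that. Cd34 was at 38.2 and 34.9 FPKM at P30 and 465 and 906 FPKM at P56, and Krt24 at 6.63 and 7.17 FPKM and 170.3 and 425 FPKM. Fgf18 was at 0.89 and 0.86 FPKM at P30 and 40.5 and 87.6 FPKM at P56, and S100a4 at 48.3 and 43 FPKM and 3689 and 6246 FPKM. S100a4 rose by 6.69 ± 0.30 (SE, log2) from P30 to P56 (adjusted p = 9.53e-06) and Fgf18 by 5.02 ± 0.45 (adjusted p = 0.000175). At P30 the bulge level of S100a4, 48.3 and 43 FPKM, was below that of the wild type hair germ at P56, 150.0 and 154 FPKM, though these stand in separate tables. Krt6a did not pass, at 1102 and 1082 FPKM at P30 and 393 and 851 FPKM at P56 (adjusted p = 0.112). The mitosis genes went the other way, with 22 of 35 lower at P56 and none higher. Among genes higher in hair germ, Slpi was at 77.3 and 87.7 FPKM in P30 bulge and 1.99 and 2.4 FPKM in P56 bulge, and fell by 4.71 ± 0.24 (adjusted p = 1.67e-05). Angptl4 fell by 2.26 ± 0.26 (adjusted p = 0.000522), whereas Pparg rose by 2.13 ± 0.33 (adjusted p = 0.00218) from 0.1 and 0.16 FPKM.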

How the data were processed

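RNA of sorted mouse skin cells was made into full-length cDNA (Smart-seq2) and sequenced as paired reads. The authors aligned reads with STAR (2.4.2 per the labels) to GRCm38/mm10 and computed gene FPKM with RSEM; the deposited FPKM values carry no stated scaling between libraries, 1 table a cell type, with 0 columns of other samples. The bulge table lists no value under 0.1 and the hair germ table lists values at 0. FPKM is not a count, so no count test was run, depth is unknown and no counting interval can be given. The study speaks of biological triplicates, whereas each group here has 2 libraries.

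Protein-coding genes of both tables at 1 FPKM or more in at least 2 of 4 libraries were floored at 0.1, rescaled by median ratios and called at 4-fold between every pair of libraries; levels are printed as deposited and differences from rescaled values. Within tables, log2(FPKM + 1) was modelled by limma 3.58.1 (R 4.3.3) with a variance trend, over the 4 hair germ or all 8 bulge libraries, on coding genes and long noncoding RNAs; fold changes on that scale understate those of low genes. Both scripts were tested on simulated data. In each table, 23 date-mangled symbols were restored from their identifiers, and 5 symbols with a second identifier were represented by the higher one. Positions are from the GRCm38 annotation (154 of 155 named genes), promoters from RefSeq GRCm38.p6. Alternatives were other scalings, floors, filters and fold limits, another pseudocount, a replicate block and each library left out.

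The genes named are the 15 called in each direction with the widest margin between nearest libraries (values under 1 FPKM set to 1, at least 5 FPKM in both libraries of the higher group), up to 4 called members of each list or the 2 most abundant where none was called, a short set of follicle genes named whatever their values, and up to 5 genes called in opposite directions in the 2 genotypes. Values of some genes are not reported here. Further lipid, steroid, stress and follicle genes were named after their values were seen. The members and lists were chosen with earlier results of these data known.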

Additional observations from a re-analysis of the deposited data

Results flagged for a closer look

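Of all 11865 genes compared, 10 were called in opposite directions in the wild type and the mutant comparison of hair germ with bulge at P56. Such calls were themselves a rule of naming, so their number among the 155 named genes is not a result. The named genes hold 5 of them, and the opposite calls are what singled them out. For each, every library of one compartment was at least 4-fold above every library of the other in wild type, and at least 4-fold below in mutants; the difference between the genotypes was not tested. Without a margin of size, 23 of the named genes lay on opposite sides, which is not described further for tables made separately. Log2 differences below are hair germ minus bulge.

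Notum, the enzyme that inactivates WNT proteins, differed by 2.28 in wild type and by -2.79 in mutants. It was at 9.54 and 7.48 FPKM in wild type hair germ and at 0.18 and 0.23 FPKM in mutant hair germ, while bulge lay between 1.34 and 2.34 FPKM in all 4 libraries of both genotypes, so the turn was in the hair germ libraries. Enho, which encodes the peptide adropin, differed by 2.37 and -4.33: it was at 5.06 and 4.45 FPKM in wild type hair germ, 0.55 and 0.26 FPKM in mutant hair germ, 1.18 and 0.83 FPKM in wild type bulge and 9.73 and 9.43 FPKM in mutant bulge.

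Stfa3, a stefin A protease inhibitor with near-identical neighbours, differed by -4.01 in wild type and 2.44 in mutants, at 3.38 and 2.39 FPKM in wild type hair germ against 79.5 and 67 FPKM in mutant, and 57.9 and 42.2 FPKM in wild type bulge against 16 and 18 FPKM in mutant. Ramp3, a receptor activity-modifying protein, differed by -2.82 and 2.30, and Sh3rf2 by -2.23 and 2.50. In these 3 genes both compartments changed, hair germ upward and bulge downward in mutants.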

How the results depend on the processing

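In wild type, genes called higher in germ and bulge numbered 205 and 310; 8-fold margins gave 71 and 140, 2-fold margins 802 and 1064, a filter at 5 FPKM 136 and 199, and a floor of 1 FPKM left 202 for bulge. Leaving out 1 library gave 227 to 521 and 386 to 487, since fewer pairs must pass, with 521 and 487 without bulge replicate 1, and 311 for germ without bulge replicate 2. In mutants the counts were 502 and 514; 8-fold margins gave 201 and 231, 2-fold margins 1347 and 1448, equal sums 283 and 934, a floor of 1 FPKM 339 for bulge, and leaving out 1 library 543 to 743 and 613 to 708. In hair germ, mutant against wild type, the count of 1136 lower genes became 1809 with a pseudocount of 0.1 and 656 with median-ratio scaling (923 higher), under which Efna1 and Sox9 turned from below 0 to 0.0409 and 0.0276; leaving out 1 library gave 594 to 651 higher and 1163 to 1195 lower. In bulge, mutant against wild type, it gave 579 to 912 higher and 663 to 855 lower. For bulge P56 against P30 it gave 859 to 1519 higher and 552 to 1133 lower, with 920 and 552 without P30 replicate 1 and 859 and 569 without P30 replicate 2; the cause was not tested. A group left with 1 library was assumed to vary like the others.

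With the replicate number as a block, hair germ gave 624 higher and 1137 lower genes, bulge mutant against wild type 823 and 831, and bulge P56 against P30 1476 and 952, none over 1.5-fold from the values without it. Deviations of same-numbered libraries correlated at -0.03 in hair germ, 0.17 between wild type and mutant bulge at P56, -0.01 to 0.04 between the other bulge groups, and 0.01 (wild type) and 0.06 (mutant) between hair germ and bulge at P56. Since not every pair passed 0.1 and no label ties the numbers to a shared animal or day, they were not taken to pair the samples. No paired analysis was possible between the tables because that comparison comes from no test. Since depth is unknown, no counting error can be given for low values.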

Other observations

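Genes outside the protein-coding class were put through the same rule. Of 840 genes of long noncoding types and of the provisional class TEC in both tables, 24 (2.86%) were called higher in the libraries labelled hair germ and 82 (9.76%) higher in bulge, against 1.73% and 2.61% of protein-coding genes. TEC models made up 47 of the 82 and 0 of the 24; antisense genes made up 12 and 10, and lincRNAs 13 and 9. BC023719, an antisense gene, was at 0 and 0.09 FPKM in wild type hair germ and 19.4 and 18.4 FPKM in bulge, and kept to 0.07 and 0 FPKM in mutant hair germ and 17.1 and 13.9 FPKM in mutant bulge. Gm42418, which overlaps ribosomal RNA sequence, was at 125 and 119 FPKM in wild type hair germ and 649.9 and 644 FPKM in bulge, and at 37.5 and 31.1 FPKM against 726 and 1097 FPKM in mutants. Ptprv, a noncoding transcript of a phosphatase locus, was at 0.67 and 0.48 FPKM against 7.76 and 17.8 FPKM. Higher in hair germ were the lincRNAs 3930402G23Rik, at 6.31 and 6.33 FPKM against 0.2 and 0.31 FPKM, and D730045B01Rik, at 9.89 and 8.24 FPKM against 0.56 and 0.51 FPKM. No source used here states whether counting used strand, so an antisense gene and its partner cannot be told apart, and cell type and table cannot be told apart in any of these values.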
